A study of Bos taurus and Felis catus with 14 samples.

Results

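The mir-130, mir-301 and mir-454 family was followed through the microRNA loci predicted in cow and cat. A locus was taken as a member when its predicted precursor was named mir-130, mir-301 or mir-454, with any letter, copy number or suffix after the number, and names marking an antisense locus were left out. This gave 5 of 810 bovine loci and 3 of 495 feline loci, or 8 of 1305 in all. The choice used names alone and no measured value. Cow held 2 mir-130, 2 mir-301 and 1 mir-454 loci, while cat held 2 mir-130 loci, 1 mir-301 locus and 0 mir-454 loci.

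Small RNA was sequenced from 10 libraries of Bos taurus and 4 libraries of Felis catus. The bovine libraries covered 10 tissues (retina, iris, optic nerve, dental pulp, oral papillae, submandibular lymph node, bone marrow, penis, brain stem and the corium of the foot), of which 8 came from 1 steer and the brain stem and corium from 1 further steer each. The feline libraries were 2 of skin and 2 of muscle from 3 cats, 1 of which gave both tissues. The study's methods describe the steers as Angus and the cats as older neutered males of the domestic short hair type, and no treatment or genotype is named. The libraries of each species were combined before miRWoods, a classifier that finds mature products and then hairpins in aligned reads, was run, so each species has 1 call set with no replicates, no score and no read number per locus. A locus that was not called is therefore not shown to be absent, and species, tissue, number of libraries and sequencing depth cannot be told apart in any difference between cow and cat. The call sets hold positions and not levels, so the tissues were not checked against marker microRNAs here.

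A microRNA is cut from a hairpin, the precursor, which can release a mature product from each arm: the 5p product from the first arm and the 3p product from the other. The mature product guides a silencing complex to messenger RNAs, mainly through its seed, bases 2 to 8. MicroRNAs with the same seed form a family, since they can pair with the same target sites. Members of the mir-130/mir-301 family are known from work on blood vessel growth, hypertension of the lung and cell proliferation, and their 3p product is usually taken as the main guide.

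The seed shows why mir-454 belongs with mir-130 and mir-301 although its name and the rest of its sequence differ. The human mature 3p sequences listed in the study's supplement are given here for this reason, 5′ to 3′ in DNA letters, with the seed in capitals. Bovine and feline sequences were not used here.

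hsa-mir-130a-3p: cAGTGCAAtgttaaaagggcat
hsa-mir-130b-3p: cAGTGCAAtgatgaaagggcat
hsa-mir-301a-3p: cAGTGCAAtagtattgtcaaagc
hsa-mir-301b-3p: cAGTGCAAtgatattgtcaaagc
hsa-mir-454-3p: tAGTGCAAtattgcttataggg

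All 5 human 3p products carried the same seed, and they differed behind it. Counting from 1 at the 5′ end, mir-130a and mir-130b shared 20 of 22 bases and differed by T11A and A13G, with the base of mir-130a given first. The pair mir-301a and mir-301b shared 21 of 23 bases and differed by A10G and G11A. Across numbers fewer bases were equal. The mir-130 and mir-301 3p products shared 11 to 13 of 22 bases, and that of mir-454 shared 13 with mir-301a, 12 with mir-301b and 10 with each mir-130 product, counts that include the seed. Among the 3p products, the letter copies of one number were thus more alike than products of different numbers.

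Among the 1616 human products in that list, which was shortened before it was given here, 5 had the letters AGTGCAA at bases 2 to 8, and these were the 5 family members. The last 6 of those letters stood 1 base earlier, at bases 2 to 7, in 2 further products, which belong to the mir-19 family. Their sequences are shown to let the shift be seen, with the shared letters in capitals.

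hsa-mir-19a-3p: tGTGCAAatctatgcaaaactga
hsa-mir-19b-1-3p: tGTGCAAatccatgcaaaactga

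The human 5p products, from the other arm, are given with the reverse complement of the seed, TTGCACT, in capitals where it is found.

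hsa-mir-130a-5p: gctcttttcacattgtgctact
hsa-mir-130b-5p: actctttccctgTTGCACTact
hsa-mir-301a-5p: gctctgactttaTTGCACTact
hsa-mir-301b-5p: gctctgacgaggTTGCACTact
hsa-mir-454-5p: accctatcaatattgtctctgc

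The stretch complementary to the seed was present in 3 of 5 of these products, starting at base 13 in each. Its exact letters were not in the 5p products of mir-130a and mir-454. Within this stretch mir-130a differed from mir-130b by T16C and G17A alone, and pairing with mismatches or G to T pairs was not searched. The 5p products of mir-130a and mir-130b shared 15 of 22 bases, against 20 of 22 for their 3p products, and those of mir-301a and mir-301b shared 18 of 22. Between mir-130 and mir-301 the order was the other way, with 14 to 16 of 22 bases equal in the 5p products against 11 to 13 in the 3p products. The 5p product of mir-130b shared 16 bases with each mir-301 5p product, more than the 15 it shared with mir-130a. The likeness of letter copies seen in the 3p products thus did not hold throughout the 5p products. With mir-454 the 5p products shared 10 of 22 bases for each mir-130 and 9 and 8 for mir-301a and mir-301b.

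The mir-130 branch had a mir-130a and a mir-130b locus in each species. Bovine mir-130a lay on chromosome 15 from 82197722 to 82197785 on the plus strand, with its 5p product at 82197725-82197746 and its 3p product at 82197765-82197784. Feline mir-130a lay on NC_018732.2 from 102651151 to 102651214 on the plus strand, with the 5p product at 102651154-102651175 and the 3p product at 102651194-102651213. The ends of each precursor were chosen by miRWoods, which by the study's methods scored several candidate spans and kept the best-scoring one. Positions are those of the deposited call sets, for which no source used here names a genome build. From these positions both hairpins had the same layout to the base: a precursor of 64 nt, 3 bases before the 5p product, a 5p product of 22 nt, 18 bases between the products, a 3p product of 20 nt and 1 base after it. The bovine and feline bars of mir-130a coincide in the plot of the precursors.

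Bovine mir-130b lay on chromosome 17 from 74100546 to 74100612 on the minus strand, with the 5p product at 74100587-74100608 and the 3p product at 74100549-74100570. Feline mir-130b lay on NC_018734.2 from 29431422 to 29431485 on the plus strand, with its products at 29431425-29431446 and 29431463-29431483. The inner part of the hairpin was the same in both species, with a 5p product of 22 nt, 16 bases between the products and 38 nt from the 5p start to the 3p start. The ends differed. The 3p product was 22 nt in cow and 21 nt in cat, the precursor was 67 nt in cow and 64 nt in cat, and the bases outside the products were 4 and 3 in cow against 3 and 2 in cat.

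**Figure D1:**
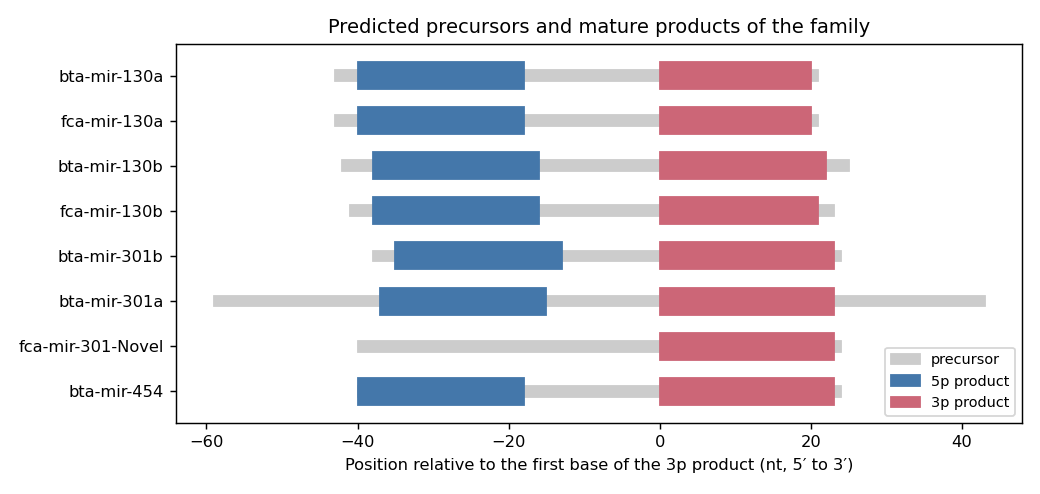
Predicted precursors (grey) and their 5p (blue) and 3p (red) products, drawn to scale in nt along the strand of each locus and aligned on the first base of the 3p product. The mir-130a bars are the same in both species, bta-mir-301a extends farthest on both sides with 102 nt, and feline mir-301 has a 3p product only.

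The mir-301 branch differed more between the call sets. Bovine mir-301b lay on chromosome 17 from 74100869 to 74100930 on the minus strand, with the 5p product at 74100906-74100927 and the 3p product at 74100870-74100892. It was the shortest family precursor, at 62 nt, and its products were the closest, with 13 bases between them and 35 nt from start to start. Bovine mir-301a lay on chromosome 19 from 10349498 to 10349599 on the minus strand, with the 5p product at 10349556-10349577 and the 3p product at 10349518-10349540. Its products were spaced much like those of mir-301b, with 15 bases between them and 37 nt from start to start, and in both loci the 5p product was 22 nt and the 3p product 23 nt.

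The bovine mir-301a precursor was nevertheless 102 nt long, since 22 bases lay before its 5p product and 20 after its 3p product, where the other 4 bovine members had 0 to 4 and 1 to 3. In the bovine set 24 loci were longer than it. At least 20 bases on both sides of the products were found in 22 of 587 bovine loci with products from both arms (3.75%) and in 11 of 325 feline loci (3.38%). The added length thus lay outside the products and not between them. It belongs to the span that was called, and whether the hairpin itself is longer was not tested.

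The feline mir-301 locus, whose name has no letter and a suffix by which the authors mark loci outside the existing annotation, lay on NC_018736.2 from 27433749 to 27433812 on the plus strand. It had a precursor of 64 nt and a 3p product alone, at 27433789-27433811. This product was 23 nt long, like the 3p products of both bovine mir-301 loci and of bovine mir-454. The 40 bases before the product hold the loop and the other arm, and 1 base followed it. The bovine mir-454 locus, on chromosome 19 from 10339873 to 10339936 on the minus strand, had both products, at 10339915-10339936 and 10339874-10339896. Its precursor also measured 64 nt, and its 5p product began at the first base of the precursor, which no other family member did. The distance from start to start was 40 nt, as in mir-130a, with 18 bases between the products and a 3p product of 23 nt. Bovine mir-454 and feline mir-301 thus had equal precursor lengths and equal 3p lengths. Both had 40 bases before the 3p product and 1 base after it, which neither bovine mir-301 locus matched in full.

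Products from both arms were called for 5 of 5 bovine members (exact 95% interval 47.8 to 100%) and 2 of 3 feline members (9.43 to 99.2%). Over all loci the shares were 72.5% in cow (587 of 810) and 65.7% in cat (325 of 495). Among loci whose name holds a family number, 409 of 502 in cow (81.5%) and 239 of 293 in cat (81.6%) had both. With so few members, the family's intervals take in the shares of both sets. The intervals cover counting error only, treat loci as independent and are not a test.

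The length of the 5p product did not vary in the family: it was 22 nt in all 7 members that had one, a length found in 44.2% of 661 bovine and 47.8% of 387 feline 5p products. The 3p product varied from 20 to 23 nt. A 3p product of 20 nt, as in mir-130a of both species, was found in 7.34% of 736 bovine and 6.93% of 433 feline loci with a 3p product, and one of 23 nt, as in mir-301 and mir-454, in 11.8% and 11.1%. The human 3p sequences above measure 22 nt in mir-130a and 23 nt in both mir-301 products. The called 3p product of mir-130a was thus 2 nt shorter than the listed human one in cow and in cat, while the mir-301 products had the listed human length. The mir-454 product, at 23 nt in cow, was 1 nt longer than the one in the study's human list. That of mir-130b was 22 nt in the human list, 22 nt in cow and 21 nt in cat. These are lengths of products as listed, and a difference between species was not tested. A single base after the 3p product, the least found in either set, was present in 41.6% of bovine and 43.2% of feline loci with a 3p product. Among the members it was present in mir-130a of both species, bovine mir-301b, bovine mir-454 and the feline mir-301.

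The spacing of the products was ordinary for the sets. The median distance from the 5p start to the 3p start was 38 nt over the 5 bovine members, with a range of 35 to 40 nt, and 38 nt over all 587 bovine loci with both products, with quartiles of 36 and 41 nt. The 2 feline members with both products measured 38 and 40 nt, against a median of 38 nt over 325 loci. The range from 35 to 40 nt took in 63.7% of the bovine and 64.9% of the feline loci. The median precursor was 64 nt in the family in both species, against 66 nt over all bovine and 65 nt over all feline loci.

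**Figure D2:**
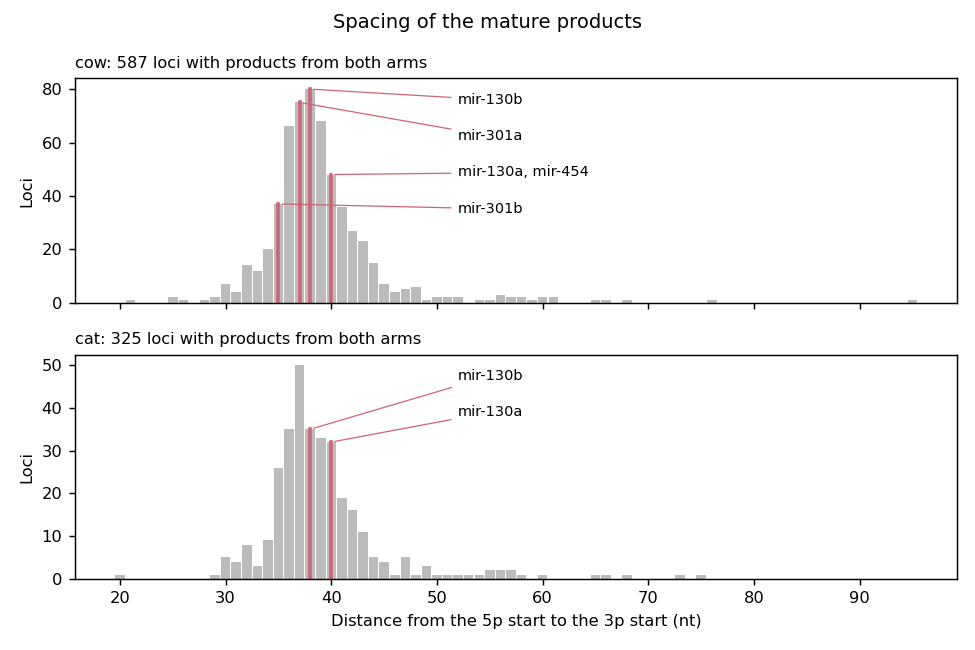
Number of predicted loci (bars) at each distance from the start of the 5p product to the start of the 3p product, in nt, for the 587 bovine and 325 feline loci with both products; red lines mark the family members. The members lie between 35 and 40 nt, in the centre of each distribution.

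The match of a locus between the species can be set beside the 164 names held by 1 locus in each set. The precursor length was equal in 60 of 164 of these (36.6%), and the distance from the 5p start to the 3p start in 110 of the 139 with both products in both species (79.1%). The 5p product had the same length in 116 of 152 (76.3%), and the 3p product in 115 of 151 (76.2%). In 44 of 139 the precursor length and the places of both products within it were all equal (31.7%), and mir-130a was one of these. The other shared name, mir-130b, was equal in the start distance and the 5p length and differed in the 3p length and the precursor length. The start distance differed by 1 nt in 16 of the 139 loci and by 2 to 4 nt in 13. The feline mir-301, whose name holds no letter, entered none of these comparisons.

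**Figure D3:**
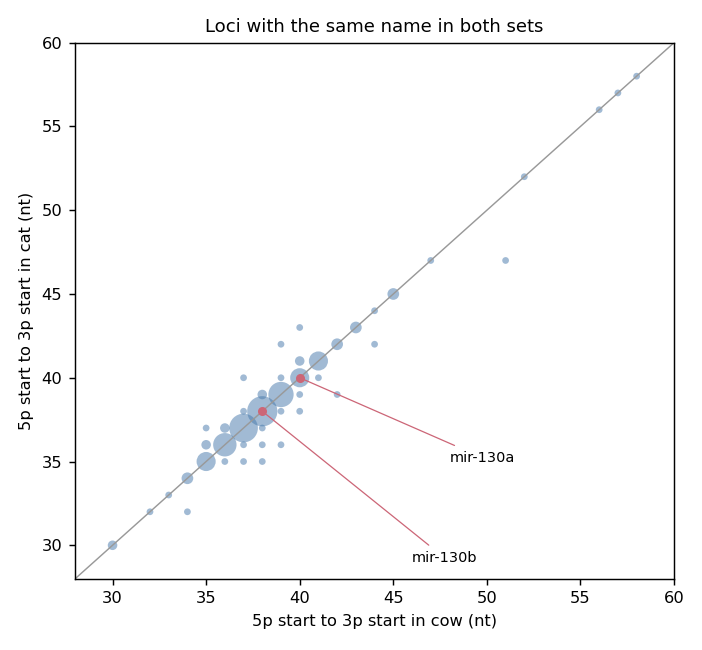
Distance in nt from the 5p start to the 3p start in cow (x axis) and cat (y axis) for the 139 names with both products in both sets, with dot area in proportion to the number of loci at a point and the line of equal distance in grey. Both mir-130a, at 40 nt, and mir-130b, at 38 nt, lie on the line.

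The 4 bovine members on chromosomes 17 and 19 stood in pairs, each with a mir-301 locus. On chromosome 17, mir-301b and mir-130b were on the minus strand with 256 nt between their precursors. On chromosome 19, mir-301a and mir-454 were also on the minus strand, with 9561 nt between them, which is just inside the 10 kb used to define a cluster. Read in the direction of transcription, mir-301 came first in both pairs. Bovine mir-130a stood alone, and its nearest called locus, bta-Novel211, was 404451 nt away on the other strand. Thus 4 of 5 bovine members (80%, exact 95% interval 28.4 to 99.5%) lay within 10 kb of another locus, against 29.0% of all 810 bovine loci (235) and 38.2% of the 502 with a family number. The interval treats loci as independent, which these were not, since each pair adds both of its loci to the count.

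In cat, 0 of 3 members lay within 10 kb of another locus (exact 95% interval 0 to 70.8%), against 33.3% of all 495 feline loci (165) and 48.1% of the 293 with a family number. No feline member had a neighbour within 100 kb. The nearest locus was 2485030 nt from mir-130a (fca-Novel59, same strand), 1726909 nt from mir-130b and 611588 nt from mir-301. No mir-301 was called beside feline mir-130b, and no mir-454 beside feline mir-301.

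The bovine gene table of RefSeq, which rests on the ARS-UCD2.0 assembly and was used for names and order only, held all 5 bovine members. There MIR454 and MIR301A were neighbours and both lay inside SKA2, a gene for a protein of the spindle and kinetochore, with TRIM37 and PRR11 as the genes on the outer sides. MIR130B and MIR301B were likewise neighbours and lay inside no other gene, with SDF2L1 next to MIR301B. MIR130A also lay inside no gene and had YPEL4 on one side.

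The nearest loci with a family number around bovine mir-301a and mir-454 were mir-142, a microRNA of blood cells, and mir-21, a widely expressed one. Bovine mir-142 lay downstream on the same strand, 812493 nt from mir-454 and 822118 nt from mir-301a. Nearer on that side was bta-Novel88, a locus without a family number, 798933 nt from mir-454 on the opposite strand. Bovine mir-21 lay upstream on the opposite strand, 683479 nt from mir-301a and 693142 nt from mir-454. The feline mir-301 locus had mir-142 and mir-21 in the same order and on the same relative strands. There mir-142 lay 760569 nt downstream on the same strand and mir-21 611588 nt upstream on the opposite one. From mir-142 to mir-21 the distance was 1505699 nt in cow and 1372221 nt in cat. The feline mir-301 locus is thus placed like the bovine mir-301a and mir-454 pair, though its letter cannot be read from the name. Its position alone does not tell which of the bovine mir-301 and mir-454 sequences it resembles most.

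Among loci with a family number outside the pair, bovine mir-130b and mir-301b had mir-185 nearest upstream, on the opposite strand. It lay 866466 nt from mir-130b and 866148 nt from mir-301b. Loci without a family number were called in between, the nearest being bta-Novel143, 529309 nt from mir-301b on the opposite strand. The next locus beyond mir-185, mir-1306, was 887356 nt from mir-130b, and was named after its values were seen. Feline mir-130b also had mir-185 upstream on the opposite strand, but 1726909 nt away, with mir-1306 beyond it at 1765844 nt. No locus was called between feline mir-130b and mir-185. Among loci with a family number outside the bovine pair, the same order and relative strands were thus found, over a distance longer in cat. Between mir-185 and mir-1306 there were 20833 nt in cow and 38878 nt in cat. On the other side of mir-130b the nearest loci were bta-Novel138, 4438441 nt away in cow, and mir-133a-2, 14607566 nt away in cat.

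**Figure D4:**
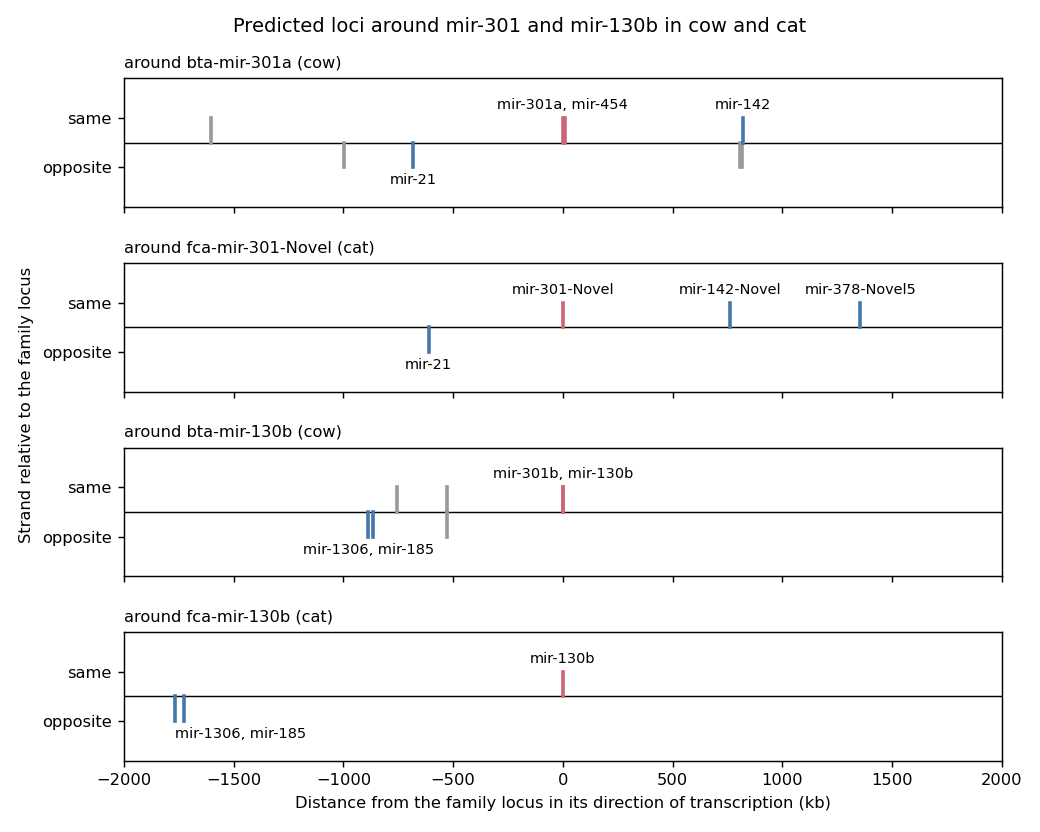
Predicted loci within 2000 kb of bovine mir-301a, feline mir-301, bovine mir-130b and feline mir-130b, at their distance in kb along the strand of that locus (positive is downstream), drawn upwards when on the same strand and downwards when on the opposite one. Family members are red, other loci with a family number blue and loci without one grey; mir-21 and mir-142 flank mir-301 in both species, and mir-1306 and mir-185 lie upstream of mir-130b in both.

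The nearest locus with a family number differed around mir-130a. It was mir-2319a in cow, 4553836 nt away, with none downstream, and mir-192 downstream and mir-129-2 upstream in cat, 5377212 and 6479381 nt away. The nearest downstream locus of any name in cat was fca-Novel57, 3709784 nt away on the opposite strand. Farther out the sets shared names, which were looked up after the nearest loci had been seen. Names with the suffix for unannotated loci were left out. Of the rest, 8 were held by 1 locus in each set and lay on the chromosome of mir-130a in both species. All 8 were upstream of it, which was fixed in cow, since no locus was called downstream of bovine mir-130a. The name mir-192, downstream in cat, was not on that chromosome in cow and so was not counted. The nearest of the 8 was mir-129-2 in both, on the same strand as mir-130a, at 7652455 nt in cow and 6479381 nt in cat. Next came mir-1343, also on the same strand, at 15932785 nt in cow and 13713387 nt in cat. Beyond these, mir-326 and mir-139 differed between the species in their order and in their strand relative to mir-130a, and the strand relation was the same for 6 of the 8 names.

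For comparison, the mir-15, mir-16, mir-195 and mir-497 group, conserved microRNAs that sit in pairs, had 6 bovine and 8 feline loci, and all of these lay within 10 kb of another locus. The mir-29 family, another conserved family with paired copies, had 5 loci in each species, of which 4 of 5 lay within 10 kb of another in both. The 0 of 3 of the mir-130, mir-301 and mir-454 family in cat had no counterpart in either group. Both groups were chosen as families with paired copies, so high shares were built into the choice and give no baseline. The difference is described here without a test. Both arms were called in 6 of 6 bovine and 7 of 8 feline loci of the mir-15 group and in 5 of 5 mir-29 loci of each species.

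The groups also differed in the ends of their precursors as called by the software. In the mir-15 group the precursors measured 63 to 68 nt in cow and 61 to 67 nt in cat. In mir-29 they reached 111 nt in cow and 112 nt in cat, and 3 of 5 loci in each species had at least 20 bases on both sides of the products, as bovine mir-301a did. Bovine mir-301b, at 62 nt, was 1 nt shorter than the shortest bovine precursor of the mir-15 group, and the other family precursors apart from bovine mir-301a lay within the range of that group in their species. A length of 62 to 67 nt, which takes in all family precursors but bovine mir-301a, was found in 45.3% of all bovine and 43.2% of all feline precursors.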

How the data were processed

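Small RNA libraries of 10 bovine tissues and of feline skin and muscle were analysed as the call sets that the authors deposited, 1 per species, in which each row gives the first and last position of a predicted precursor or mature product. The authors trimmed adapters with cutadapt 1.15 and aligned reads with Bowtie, keeping reads with at most 10 genome positions, and pooled the libraries of a species for miRWoods. No source used here names the genome build, and the call sets hold no depth per locus.

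Spans, gaps and positions of products along the strand were computed in Python 3.11.15 from the deposited positions, with code tested on simulated call sets. A cluster was a gap of at most 10 kb. Shares have exact 95% binomial intervals (scipy 1.17.1), which cover counting error only and treat loci as independent, although loci in a cluster are not. With 1 call set per species there was no replicate and no test was run. All members, their nearest neighbours and 2 groups of conserved families were named by rule. The members and lists were chosen with earlier results of these data known, and mir-1306 and the ranges of length and distance were chosen after values were seen. Human sequences came from a supplementary list, without its values.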

Additional observations from a re-analysis of the deposited data

How the results depend on the processing

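Of 34 alternative settings, 24 left the value as given and 0 reversed a result. Without names that carry the suffix for unannotated loci there were 2 feline members against 3, since the only feline mir-301 locus was left out. The number of bovine members in clusters was 2 with a gap of at most 1 kb and 2 with 5 kb, against 4 with 10 kb, since mir-301a and mir-454 lie 9561 nt apart. Measured between the starts of the spans or of the 3p products, the distance was 323 or 322 nt for mir-301b and mir-130b and 9625 or 9644 nt for mir-454 and mir-301a. The mean bovine precursor was 71.8 nt against the median of 64 nt, owing to mir-301a. The bases between the products had a median of 16 in cow and 17 in cat, a measure that leaves out the 5p product. The feline gaps had no partner locus and gave no value. Leaving out a library was not run, since the libraries were pooled before calling. A paired analysis of the cat that gave both tissues was not possible for the same reason. The call sets hold no reads per locus, and the counts in the study's supplement were not used here. This limits what a missing call can show.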
